A study of Homo sapiens with 6 samples.

Results

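Desmosome genes were followed in 293T cells, a human embryonic kidney line that carries the SV40 large T antigen. They were the 10 genes named PKP1, PKP2, PKP3, PKP4, DSP, JUP, DSG2, DSC2, DSC3 and PERP, matched by symbol among the 60669 genes counted, and the set was chosen by symbol around PKP3, which was selected on its 0 counts in the MLL2 knockout. Total RNA of 6 libraries was sequenced after a stranded library preparation. The control group was wild type and untreated per the labels (n = 2 libraries), the second group was an MLL2 knockout made with CRISPR/Cas9 (n = 2), and the third was a PRMT1 knockdown made with shRNA (n = 2). The labels do not say whether the knockout is 1 clone, which guide or hairpin was used, or whether the control cells carried a control hairpin. The alignment names in the headers of the count tables carry the tag shNT in the control and knockout libraries and shPR in the knockdown, tags that the labels do not explain, so untreated is the labels' word and cells with a hairpin in those 2 groups cannot be told apart from cells without one.

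Desmosomes are the spot-like junctions that tie the intermediate filaments of neighbouring epithelial or heart muscle cells together. Their cadherins, the desmogleins (DSG) and desmocollins (DSC), bridge the gap between cells, the armadillo proteins plakoglobin (JUP) and the plakophilins (PKP) bind the cadherin tails, and desmoplakin (DSP) links these to the filaments. PRMT1 is the main enzyme that makes asymmetric dimethylarginine and has been described to act on desmoplakin protein, while MLL2 is a name used for each of 2 histone H3 lysine 4 methyltransferases, KMT2B and KMT2D.

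Total counts ranged from 20061471 to 22351532 per library. PRMT1 stood at 306 and 319 CPM (counts scaled to library size by the trimmed mean of M values) in the controls, 406 and 425 in the knockout, and 38.2 and 34.9 in the knockdown, a log2 change of -3.10 in the knockdown (adjusted p = 5.51e-16, edgeR quasi-likelihood test). KMT2B and KMT2D showed log2 changes of 0.02 and 0.19 in the knockout (adjusted p = 0.97 and 0.66), which does not check the label, since an edited gene can still be transcribed. In the knockdown both rose, by 1.49 and 1.76 (adjusted p = 3.1e-05 and 8.4e-06), with replicates far apart: 277 and 609 counts for KMT2B, 781 and 2176 for KMT2D. The replicates of the knockdown differed most from each other: their counts gave a chi-square per degree of freedom of 12.8, against 5.58 in the controls and 4.45 in the knockout. Of the 8 markers set down for 293T cells all were detected, with VIM at 490 to 751 CPM and PAX2 at 1 to 11 counts. Their sum was 1179 and 1188 CPM in the controls, 926 and 933 in the knockout, and 1061 and 998 in the knockdown. By gene, 1 of the 8 rose and 4 fell in the knockout (median log2 change -0.95), and 3 rose and 4 fell in the knockdown (median -1.15), against medians over all genes of -0.01 and -0.04. Over all genes tested, 10.3% rose and 12.1% fell in the knockout, and 22.2% rose and 25.3% fell in the knockdown. The part of these markers in the changes of the desmosome genes was not tested. In contrast, the keratinocyte markers KRT5, KRT14 and TP63 summed to at most 0.324 CPM in any library, leukocyte and endothelial markers to at most 0.351, and fibroblast markers to 2.61 to 4.42, with none of the 3 tested called. GEO gives no label that replicates came from separate cultures, so p-values measure the spread between these libraries, which may be technical. In bulk RNA, fewer cells of a kind and less RNA per cell cannot be told apart.

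The promoters of DSP, PERP and DSG2 are shown because these 3 members kept their call in the PRMT1 knockdown under every alternative setting run. The stretches lie just upstream of the first exon in the count files (RefSeq, GRCh38.p14, read 5′ to 3′ on the gene's strand), at chr6:7541421-7541616 on the plus strand for DSP, chr6:138107420-138107669 on the minus strand for PERP and chr18:31497927-31498176 on the plus strand for DSG2. Capitals mark CpG dinucleotides, of which the stretches hold 27, 34 and 26.
DSP: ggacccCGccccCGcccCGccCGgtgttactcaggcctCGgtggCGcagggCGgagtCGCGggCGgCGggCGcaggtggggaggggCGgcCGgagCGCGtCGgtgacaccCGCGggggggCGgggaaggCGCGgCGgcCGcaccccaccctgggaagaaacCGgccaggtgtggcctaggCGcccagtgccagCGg
PERP: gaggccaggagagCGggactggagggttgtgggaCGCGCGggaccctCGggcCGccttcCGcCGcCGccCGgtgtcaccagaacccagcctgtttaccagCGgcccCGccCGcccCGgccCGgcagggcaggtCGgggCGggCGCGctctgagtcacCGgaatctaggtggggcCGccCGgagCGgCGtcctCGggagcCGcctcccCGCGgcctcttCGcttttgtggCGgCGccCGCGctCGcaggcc
DSG2: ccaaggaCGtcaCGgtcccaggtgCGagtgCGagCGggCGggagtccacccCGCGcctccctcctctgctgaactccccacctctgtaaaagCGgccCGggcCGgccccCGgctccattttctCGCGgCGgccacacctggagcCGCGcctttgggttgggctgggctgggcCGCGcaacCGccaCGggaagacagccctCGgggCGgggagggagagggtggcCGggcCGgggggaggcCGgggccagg

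RefSeq promoter windows of 300 bases were found for 8 of the 10 members, 11 windows in all, and PKP2 and PKP3 had no entry. Over all 35116 windows in that table the median content of G and C was 58.7%, against 60.7% to 77% in the members' windows. The part of this difference in the motif counts below was not tested. The median over all windows was 14 CpG. The members' windows held 43 (PERP), 37 (DSP), 36 (DSG2), 31 and 27 (PKP4), 25 (DSC3), 23 and 19 (JUP), 22 and 15 (DSC2) and 19 (PKP1). Searched on both strands, GGGCGG (the core of GC boxes) was in 9 of 11 windows and in 45.0% of all, CACCTG (an E-box of the kind that SNAI and ZEB repressors bind) in 4 of 11 and 20.6%, CCAAT in 3 of 11 and 34.6%, and TATAAA in 0 of 11 and 11.5%; none of these motifs contains another. The members that fell in the MLL2 knockout (DSG2, PERP, JUP and DSC2) spanned the whole range of CpG counts, from 15 to 43, and PKP1, at 0 counts, lay within it at 19.

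As CPM per kilobase of exon, a level that can be set between genes, the control cells held most DSG2 at 28.3 ± 1.62 (SD, n = 2), DSP at 26.0 ± 2.73 and PERP at 24.0 ± 0.13. The DSP libraries overlapped those of DSG2 and of PERP, while DSG2 and PERP did not overlap. Below them came DSC3 at 15.8, PKP4 at 11.8, JUP at 8.07, DSC2 at 6.02, PKP2 at 3.33 and PKP3 at 1.09, and these steps were each wider than the spread of the 2 libraries. PKP1, the plakophilin of stratified skin, had 0 counts in all 6 libraries, where 3 counts correspond to 0.132 to 0.150 CPM. The skin-type cadherins were near 0 as well: DSG1, DSG3, DSG4 and DSC1 had at most 5 counts in any library. In the knockout the order of the leading genes was DSP at 30.8, DSG2 at 22.3 and PERP at 19.96, and in the knockdown DSP at 43.1, PERP at 32.4, DSG2 at 21.6 and DSC3 at 19.7, of which the last 2 overlapped.

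**Figure D1:**
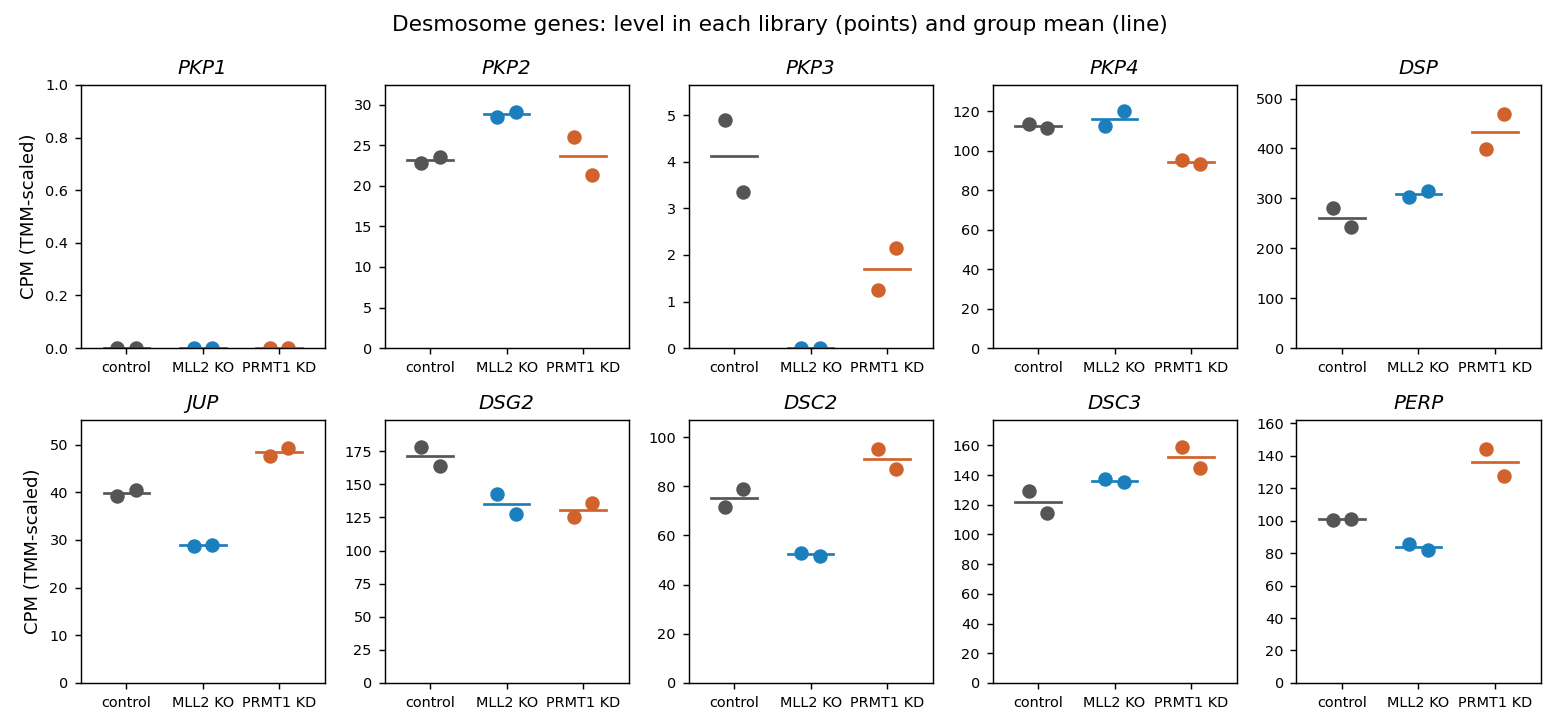
CPM of each desmosome gene in each library, by group (points are libraries, 2 per group; lines are group means; each panel has its own axis from 0). PKP3 is at 0 in both knockout libraries, and DSP and PERP reach their highest levels in the knockdown.

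PKP3 encodes the plakophilin that is most widely spread among epithelia and that also binds RNA-binding proteins. It lies at chromosome 11, 392614 to 404908 on the plus strand (hg38). It had 98 and 68 counts in the controls, 0 and 0 in the knockout, and 26 and 49 in the knockdown. The knockdown libraries lay below the control libraries, while the place of the knockout at 0 was set by the choice of the gene. The control level, 4.89 and 3.35 CPM, was at least 28.8-fold higher than the knockout's, taking 3 counts per library as the floor, and the knockdown level, 1.26 and 2.15 CPM, was at least 11.9-fold higher than it. Leaving out 1 library moved the first bound between 23.4 and 34.2 and the second between 8.80 and 15.0. The 0 counts in the knockout chose this gene, so they are given without a test. The choice may also have drawn on the control counts, so the test of the knockdown against the controls may not be independent of it. Against the controls the knockdown was lower by a factor of 2.40 (log2 change -1.27 ± 0.45 SE, adjusted p = 0.0252). This call was lost without control replicate 1 (log2 -0.97, adjusted p = 0.227) or without knockdown replicate 1 (log2 -0.94, adjusted p = 0.142).

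Of the other plakophilins, PKP2 and PKP4 were detected in every library, while PKP1 had 0 counts in all 6. The 0 of PKP3 in the knockout was set by its choice, so its contrast with them is no separate result. PKP2, the main plakophilin of heart muscle and simple epithelia, stood at 22.8 and 23.6 CPM in the controls, 28.5 and 29.1 in the knockout and 26.0 and 21.3 in the knockdown. Its log2 changes were 0.31 ± 0.13 in the knockout (adjusted p = 0.0961) and 0.03 ± 0.13 in the knockdown (adjusted p = 0.884), neither past the threshold of 0.05. PKP4, also known as p0071, which sits at adherens junctions as well as desmosomes, stood at 114 and 112 CPM in the controls, 113 and 120 in the knockout and 95.1 and 93.2 in the knockdown. It fell in the knockdown (log2 -0.26 ± 0.08, adjusted p = 0.0155), where the 2 libraries lay below the other 4, but not past the threshold with library totals in place of the trimmed mean (log2 -0.14, adjusted p = 0.141), with no count filter, with the compared groups alone, or without either control library.

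Summed per length, the plakophilins as a family lay between 13.4 and 16.8, with the knockdown at 14.0 and 13.4 and every other library at 15.9 or more. PKP3 made up 7.81% and 5.52% of that sum in the controls, 0% in the knockout, and 2.36% and 4.23% in the knockdown. PKP4 made up 71.1% to 75.1% of it in every library. Among the desmosomal cadherins, DSG2 took 56.7% and 56.2% of the family sum in the controls, 51.6% and 49.3% in the knockout, and 42.2% and 46.6% in the knockdown.

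**Figure D2:**
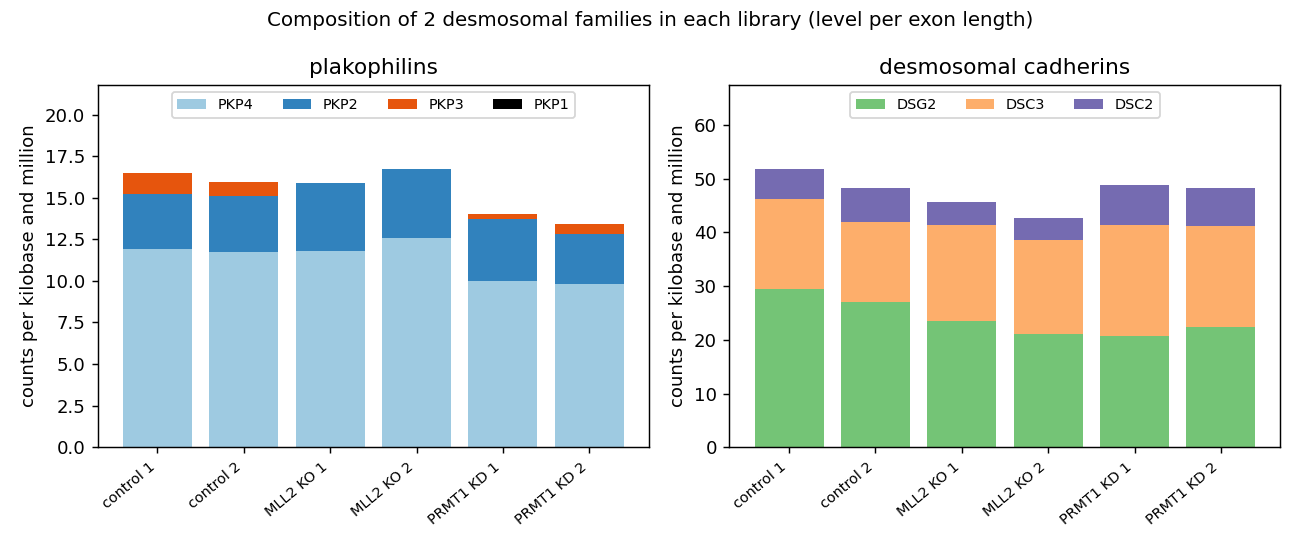
Stacked bars of CPM per kilobase of exon for the plakophilins and the desmosomal cadherins in each library. PKP3 fills 5.52% to 7.81% of the plakophilin sum in the controls and 0% in the knockout, and the DSG2 share is highest in the controls.

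Of the 8 members that could be tested in the MLL2 knockout (PKP1 was too low, PKP3 was left out), 4 fell and 0 rose, while of all 17575 genes tested 12.1% fell, 10.3% rose and 22.4% were called in either direction. Those 4 were JUP, DSG2, DSC2 and PERP. Higher at an unadjusted p under 0.05 were 2 (PKP2 and DSP), and DESeq2 called 1 (DSP). The median log2 change over the 8 was -0.11 on the log2 scale, against -0.01 over all genes. 
DSC2, a desmocollin of simple epithelia and heart, showed the largest fall of a tested member. It stood at 71.6 and 78.8 CPM in the controls, 53.0 and 51.6 in the knockout and 95.2 and 87.0 in the knockdown, with no overlap between any groups. The knockout was lower by a factor of 1.44 (log2 -0.52 ± 0.10, adjusted p = 4.65e-04), a call kept in every alternative. JUP, plakoglobin, which binds classical cadherins too, stood at 39.3 and 40.4 CPM in the controls, 28.8 and 28.99 in the knockout and 47.7 and 49.2 in the knockdown. It fell in the knockout by a log2 change of -0.47 ± 0.11 (adjusted p = 0.0036), a call lost without control replicate 2 (adjusted p = 0.05). DSG2, the desmoglein found in nearly all desmosome-bearing tissue, stood at 178 and 164 CPM in the controls, 143 and 128 in the knockout and 125 and 136 in the knockdown. It fell in both, by -0.34 ± 0.09 in the knockout (adjusted p = 0.00779) and -0.39 ± 0.09 in the knockdown (adjusted p = 9.87e-04), comparisons that share the control libraries. The knockout call was lost without control replicate 1 (adjusted p = 0.14) or knockout replicate 2 (adjusted p = 0.204).

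PERP, a tetraspan membrane protein and target of p53 and p63 that is needed for desmosomes in skin, stood at 100 and 101 CPM in the controls, 85.8 and 81.8 in the knockout and 144 and 128 in the knockdown. Its fall in the knockout (log2 -0.27 ± 0.09, adjusted p = 0.0352) was lost without any 1 of the control or knockout libraries. It was also lost with no count filter (adjusted p = 0.0503). PERP lies on chromosome 6 beyond 70 Mb, where the 278 tested genes of at least 4 mean CPM had a median log2 change of -0.30 in the knockout with 134 called lower and 9 higher. Within that stretch PERP was close to the median. The part of the stretch in the change of PERP was not tested.

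DSP, desmoplakin, the plakin that joins the desmosome to intermediate filaments, did not pass the threshold in the knockout: 281 and 242 CPM in the controls became 304 and 315 there, a log2 change of 0.24 ± 0.09 (adjusted p = 0.0655). It was called higher under 8 of the alternatives, with log2 values of 0.14 to 0.35 over all settings. DSC3, the desmocollin of basal layers, stood at 129 and 114 CPM in the controls and 137 and 135 in the knockout (log2 0.16 ± 0.09, adjusted p = 0.205). In the knockout the desmosomal cadherins did not move as a block: DSG2 and DSC2 fell and DSC3 did not pass.

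**Figure D3:**
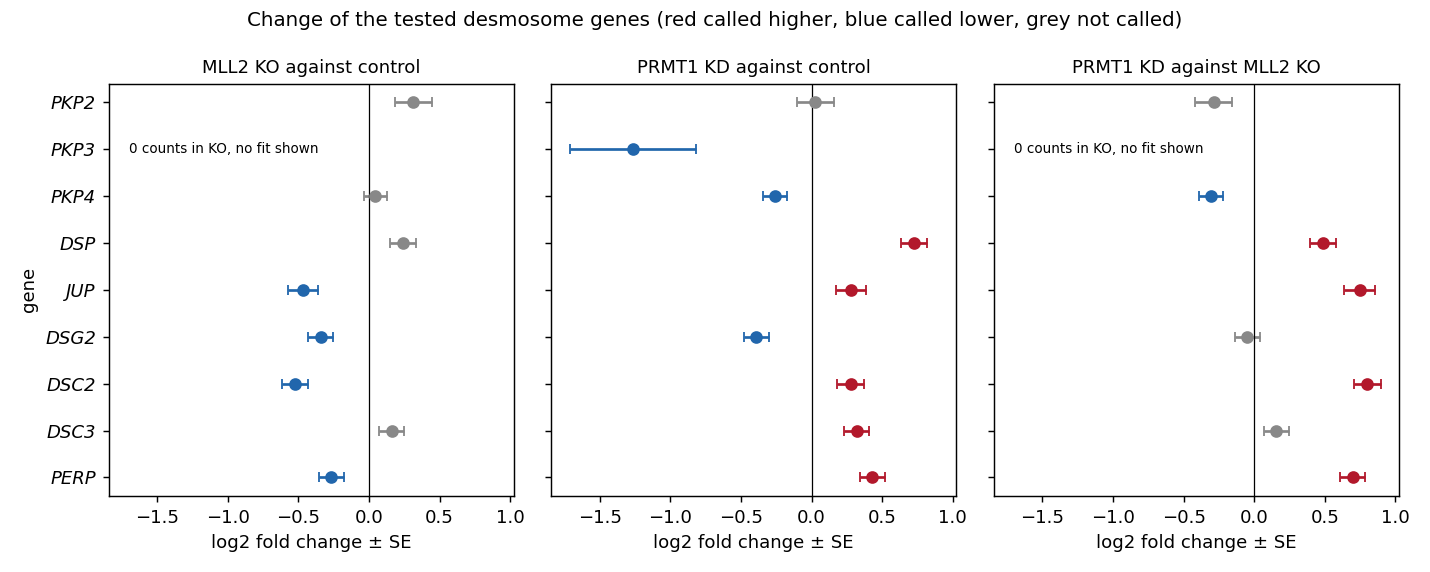
Log2 fold change with its standard error for each tested member in the 3 comparisons (red called higher, blue lower, grey not called). JUP, DSC2 and PERP lie below 0 in the knockout against control and above 0 in the other 2 panels.

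In the PRMT1 knockdown 8 of 9 tested members changed: DSP, JUP, DSC2, DSC3 and PERP rose, and PKP3, PKP4 and DSG2 fell. Of all genes tested 47.4% were called there, 22.2% higher and 25.3% lower, so a large share of the transcriptome moved with them. The call of PKP3 carries the limit of its choice given above. DSP rose most, to 398 and 468 CPM, 1.66-fold above the controls (log2 0.73 ± 0.09, adjusted p = 1.58e-06). PERP rose by 0.43 ± 0.09 (adjusted p = 3.84e-04), and DSC3 reached 159 and 145 CPM, a rise of 0.32 ± 0.09 (adjusted p = 0.00498) that was lost without control replicate 2. JUP and DSC2 each rose by 0.28 on the log2 scale (adjusted p = 0.0338 and 0.0188). DSC2 missed the threshold once exon length was fitted (log2 0.15, adjusted p = 0.21) and without control replicate 1 or knockdown replicate 1, and JUP missed it without any 1 of 5 libraries.

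In the knockdown libraries the change differed with exon length, and the cause of this was not tested. Among genes of at least 4 mean CPM, the median log2 change was -0.39 for exon lengths under 2000 bases and 0.16 for 8000 bases or more, against 0.00 and 0.03 in the knockout. DSP has 10048 exonic bases and DSC2 12501. With exon length fitted, the rise of DSP was 0.66 (adjusted p = 5.12e-07) and that of PERP, with 4198 bases, 0.53 (adjusted p = 1.28e-05).

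Set directly against each other, the knockdown held more DSC2 (log2 0.80 ± 0.09, adjusted p = 9.54e-07), JUP (0.75 ± 0.11, adjusted p = 1.08e-05), PERP (0.70 ± 0.09, adjusted p = 2.37e-06) and DSP (0.49 ± 0.09, adjusted p = 2.31e-04) than the knockout, and these 4 calls held in every alternative. Less PKP4 was found in the knockdown (-0.30 ± 0.08, adjusted p = 0.0062), a call lost with library totals (-0.19, adjusted p = 0.055) and without knockout replicate 2 (adjusted p = 0.107). Of all genes 40.7% were called in this comparison, 19.4% higher and 21.4% lower, beside 4 of 8 members higher and 1 lower. DSG2 differed by -0.05 ± 0.09 (adjusted p = 0.70). In the comparisons with the controls, JUP, DSC2 and PERP were the members called lower in the knockout and higher in the knockdown. Each of these genes had a call against the controls that was lost under some alternatives, as given in its paragraph. On the same stretch of chromosome 6 as PERP, the 278 genes had a median of 0.34 in the knockdown against the knockout.

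Some genes around PKP3 were called as well. B4GALNT4, a glycosyltransferase gene whose midpoint lies 23.0 kb upstream of that of PKP3, stood at 24.2 and 29.4 CPM in the controls, 6.29 and 7.46 in the knockout and 5.08 and 5.88 in the knockdown (log2 -1.96 and -2.29, adjusted p = 2.0e-07 and 3.5e-09). IFITM1, an interferon-induced membrane protein gene, fell by -1.10 and -2.52 on the log2 scale (adjusted p = 0.0029 and 1.9e-07), the first lost without knockout replicate 2. IFITM2, of the same family, fell in the knockdown (-1.01, adjusted p = 0.039), a call lost under 6 of 14 alternatives. SIGIRR, on the other side with its midpoint at 12.8 kb, did not pass in the knockout (-0.26, adjusted p = 0.22) and fell in the knockdown (-1.20, adjusted p = 1.1e-06). Of the 10 nearest tested genes, 2 fell and 1 rose in the knockout, and 5 fell in the knockdown. Over all genes tested, 12.1% fell and 10.3% rose in the knockout, and 25.3% fell and 22.2% rose in the knockdown. Near PERP, NHSL1 fell by -0.93 and its antisense partner NHSL1-AS1 by -1.94 in the knockout (adjusted p = 1.4e-04 and 4.2e-06), and by -1.68 and -2.41 in the knockdown (adjusted p = 2.4e-08 and 4.3e-08). SLC35D3 fell in the knockout, from 23 and 18 counts to 4 and 3, a call lost under 7 of 14 alternatives, and the pseudogene MTCH1P1 was called higher in the knockdown with 6 and 36 counts, a call lost without control replicate 1 or knockdown replicate 2.

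Around DSP, RIOK1, SSR1, SNRNP48 and EEF1E1 were called higher in the knockdown, by 0.46, 0.38, 0.43 and 0.52 (adjusted p = 1.2e-04, 8.3e-04, 7.6e-04 and 0.0096). They were 4 of the 10 nearest tested genes, whose median log2 change was -0.09, while 22.2% of all genes rose and 25.3% fell. Against the knockout, where DSP was higher by 0.49, 0 of the 10 were called higher and 1 lower. In the knockdown against the controls, 1 of the 10 fell. That gene was BMP6, with its midpoint 239.7 kb away (-1.63, adjusted p = 4.9e-08). The same 4 genes were called higher in the knockout, where 10.3% of all genes were and DSP was not, by 0.32, 0.42, 0.32 and 0.48 (adjusted p = 0.0083, 0.0011, 0.019 and 0.034). Of these 8 calls, those of RIOK1, SNRNP48 and EEF1E1 in the knockout and of EEF1E1 in the knockdown were lost when 1 of several libraries was left out.

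Near the other members, several genes were called with a log2 change of at least 1. In the knockdown, of 10 tested neighbours each, 6 fell and 1 rose near JUP, and 5 fell and 2 rose near PKP1. Near PKP2 3 fell and 0 rose, and near PKP4 1 fell and 2 rose. Near DSG2 0 fell and 5 rose, and near DSC2 and DSC3 2 fell and 4 rose each. Of all genes 25.3% fell and 22.2% rose there. NAV1 and the antisense gene ENSG00000229191 near PKP1 fell in the knockout (-1.21 and -1.71, adjusted p = 0.0016 and 0.02), as did HAP1 near JUP (-1.18, adjusted p = 0.012). In the knockdown CSRP1 and INAVA near PKP1 (-2.10 and -1.31, adjusted p = 0.034 and 0.03), ACVR1C near PKP4 (-1.24, adjusted p = 0.0065) and AQP4 near the desmocollins (-1.41, adjusted p = 0.04) fell. The keratin gene KRT17, a neighbour of JUP, fell there as well (-3.46, adjusted p = 0.02). ENSG00000274578, in reach of all 3 desmosomal cadherins, had 0 and 0 counts in the controls, 1 and 0 in the knockout and 10 and 15 in the knockdown. The pseudogene RPL7AP22 near PKP4 was called higher in the knockdown than in the knockout, with 26 and 50 counts against 0 and 12. Apart from NAV1, these calls were each lost when 1 of at least 2 libraries was left out in turn.

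**Figure D4:**
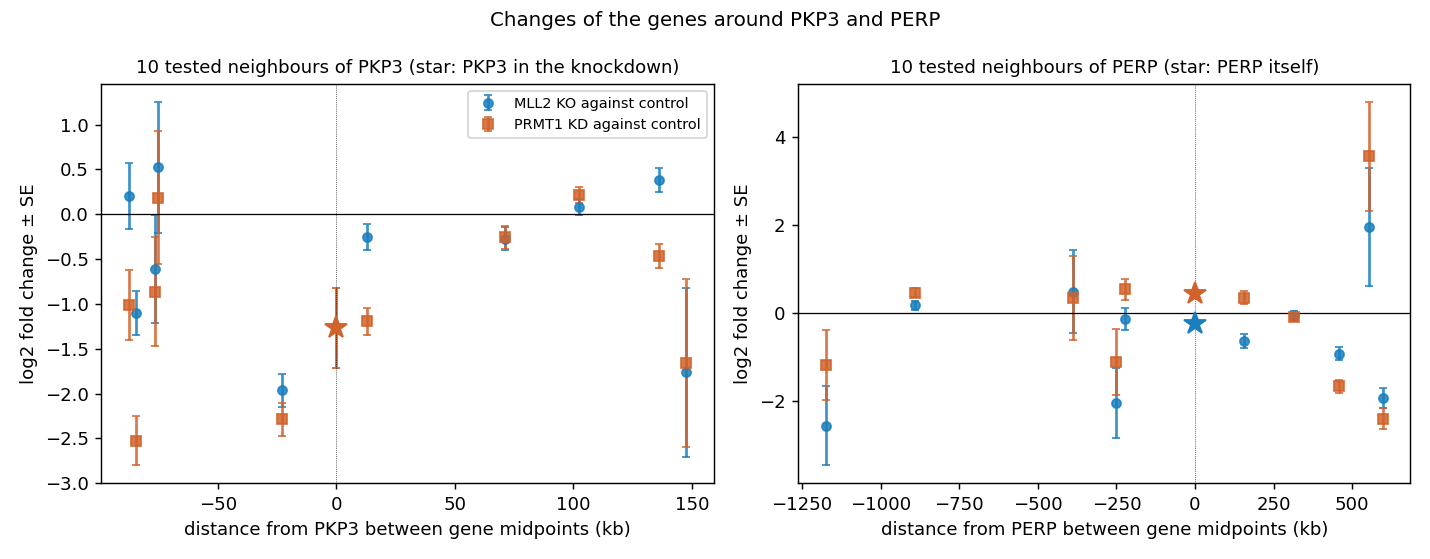
Log2 change with its standard error of the 10 nearest tested genes of PKP3 and of PERP against the distance between gene midpoints, for the knockout (circles) and the knockdown (squares) against control; stars are PKP3 (knockdown alone) and PERP. B4GALNT4 is lower in both, and SIGIRR, IFITM1 and B4GALNT4 lie below 0 around PKP3 in the knockdown.

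The 5 genes whose profile over the 6 libraries was most like that of PKP3, by root mean square distance of log2 CPM from the control mean among 12223 genes, were ADCY7, KCNT2, BEX1, BARX1 and MDK. ADCY7, an adenylate cyclase, came closest at a distance of 0.276, with 365 and 347 counts in the controls, 29 and 49 in the knockout and 155 and 201 in the knockdown. BEX1 was, like PKP3, at 0 counts in both knockout libraries, from 66 and 70 in the controls, and had 15 and 18 in the knockdown. MDK, midkine, a growth factor, had 762 and 871, then 112 and 113, then 537 and 554 counts.

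The 79 distinct genes tested from the lists that follow and from the markers held 12 that rose and 21 that fell in the knockout, where 10.3% and 12.1% of all genes did, and 27 that rose and 23 that fell in the knockdown, where 22.2% and 25.3% did. When 1 library was left out the knockout counts went down to 2 and 8, each of the 4 control and knockout libraries lowering both by over 1.5 times (higher to 7 and 2 without control replicates 1 and 2, and to 5 and 6 without knockout replicates 1 and 2; lower to 8, 9, 9 and 11). In the knockdown 16 rose without control replicate 2 and 15 fell without control replicate 1.

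Keratins are the filaments that desmosomes hold in epithelia. Of 10 keratins 4 were tested: 1 fell in the knockout and 3 in the knockdown, with medians of -0.49 and -1.51. The shares of all genes that fell were 12.1% in the knockout and 25.3% in the knockdown. KRT8, a keratin of simple epithelia, stood at 31.0 and 37.7 CPM in the controls, 6.38 and 6.43 in the knockout and 7.01 and 6.76 in the knockdown (log2 -2.42 and -2.32, adjusted p = 2.3e-09 and 5.7e-10). Its partner KRT18 fell in the knockdown (-0.71, adjusted p = 4.4e-06) and had -0.23 in the knockout (adjusted p = 0.098). KRT17 was the third keratin to fall in the knockdown, from 25 and 8 counts to 2 and 1 (adjusted p = 0.02), a call lost without control replicate 1 or either knockdown library. KRT10, the fourth tested, had log2 changes of 0.67 in the knockout (adjusted p = 0.087) and -0.16 in the knockdown (adjusted p = 0.67).

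Of the 7 tested plakins and filament linkers, 1 fell in the knockout, and 3 rose and 1 fell in the knockdown. The shares over all genes were 12.1% lower in the knockout, and 22.2% higher and 25.3% lower in the knockdown. DST, the plakin dystonin, rose by 1.01 in the knockdown (adjusted p = 9.9e-09), and by 0.29 with exon length fitted (adjusted p = 0.0081). VIM, vimentin, rose by 0.55 (adjusted p = 8.6e-06). PLEC, plectin, fell in the knockout (-0.68, adjusted p = 0.025) and rose in the knockdown (0.97, adjusted p = 4.9e-04). It lies on chromosome 8 beyond 50 Mb, where 251 genes had a median of -0.45 in the knockout with 156 called lower and 1 higher; the part of this stretch in the change of PLEC was not tested. The PLEC call in the knockout was lost with library totals, with DESeq2, and without control replicate 1, control replicate 2 or knockout replicate 1 (adjusted p = 0.053, 0.302, 0.077, 0.107 and 0.073). Its knockdown libraries were 42.2 and 88.9 CPM, and without the second the rise was 0.33 (adjusted p = 0.045).

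Other junctions showed changes in both directions. Over all genes tested, 10.3% rose and 12.1% fell in the knockout, and 22.2% rose and 25.3% fell in the knockdown. Of 13 tested adherens junction genes 3 rose and 3 fell in the knockout, and 5 rose and 5 fell in the knockdown. CDH3, P-cadherin, fell in both (-1.61 and -3.51, adjusted p = 0.011 and 7.9e-06), the first lost without either control library or knockout replicate 2. In the knockdown CTNNA1, alpha-catenin, fell by -0.76 (adjusted p = 1.9e-07), while AFDN, afadin, rose by 0.50 (adjusted p = 3.3e-05) and CTNND1, p120-catenin, by 1.26 (adjusted p = 4.6e-05). Of 12 tight junction genes 1 rose and 4 fell in the knockout, and 4 rose and 2 fell in the knockdown, where OCLN, occludin, rose by 1.14 (adjusted p = 2.5e-06) and F11R, a junctional adhesion molecule, by 0.85 (adjusted p = 2.1e-05). CGNL1, paracingulin, fell in both (-1.70 and -1.45, adjusted p = 6.3e-05 and 6.0e-05). Of 5 gap junction genes 1 fell in the knockout and 2 rose and 2 fell in the knockdown. The knockout call was GJB2, connexin 26, at -1.54 (adjusted p = 0.0024).

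Regulators were listed as well, beside the same shares over all genes (10.3% higher and 12.1% lower in the knockout, 22.2% and 25.3% in the knockdown). Of 10 tested epithelial transcription factors and repressors, 4 rose and 1 fell in the knockout, and 5 rose and 1 fell in the knockdown, with medians of 0.15 and 0.61. GRHL1, a grainyhead factor of epithelia, rose in both (0.77 and 1.22, adjusted p = 0.0043 and 1.1e-05), and so did the repressor ZEB2 (0.40 and 1.12, adjusted p = 0.016 and 7.0e-08). Their knockout calls were lost without control replicate 1, and that of ZEB2 also without control replicate 2 or either knockout library. SNAI2, another repressor, fell in the knockdown (-1.18, adjusted p = 9.9e-08). Of 15 kinases and proteases that act on desmosomes, 2 rose and 5 fell in the knockout, and 5 rose and 5 fell in the knockdown. GSK3B, a kinase that phosphorylates the desmoplakin tail, rose in both (0.39 and 0.95, adjusted p = 0.038 and 3.8e-06), and ADAM15, a metalloprotease, fell in both (-0.27 and -1.35, adjusted p = 0.034 and 3.9e-10). The knockout calls of GSK3B and ADAM15 were lost without control replicate 2 or either knockout library, and that of ADAM15 also without control replicate 1, with DESeq2 and with no count filter. Among the 5 RNA-binding partners of plakophilins, 2 rose and 2 fell in each comparison with the controls. G3BP1, a stress granule protein, rose in the knockout (0.45, adjusted p = 2.9e-04) and fell in the knockdown (-0.29, adjusted p = 0.0044), the latter lost without control replicate 1.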

How the data were processed

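Gene counts of 6 libraries were used as the authors deposited them, 1 file per library. Per the file headers, read pairs were counted with featureCounts 2.0.1 on GENCODE 34 with strand setting 2 and a minimum mapping quality of 10; the submitters' processing notes name FastQC 0.11.4, Trim Galore 0.6.10, STAR 2.7.5a, featureCounts 1.5.0-p1, DESeq2 1.36.0 and hg38, so the 2 sources differ on the featureCounts version. Members were matched by symbol through the gene identifiers. Counts were fitted over all 6 libraries with edgeR 4.0.16 (R 4.3.3; trimmed mean of M values scaling, filterByExpr, quasi-likelihood test, 3 residual degrees of freedom), with Benjamini-Hochberg adjustment over 17575 genes and a threshold of 0.05. Alternatives were other scalings, DESeq2 1.42.0, other count filters, the compared groups alone, a replicate block, an exon length term and leaving out each library. Named genes were the members, the targeted genes, up to 6 genes per list with the smallest adjusted p, neighbours called with a log2 change of at least 1 in any comparison and the 5 genes most like PKP3; PAX2, RIOK1, SSR1, SNRNP48 and EEF1E1 were named after their values were seen. The members, the lists, the length classes and the chromosome stretches were chosen with earlier results of these data known.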

Additional observations from a re-analysis of the deposited data

How the results depend on the processing

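Of 350 values of single members under alternatives, 305 kept direction and side of the threshold, 26 lost the threshold, 14 gained it and 5 changed sign. In the knockout, where 0 members rose, 1 rose (DSP) with relative log expression scaling, DESeq2, no count filter, the replicate block or the exon length term, 2 (DSP and PKP2) with the compared groups alone, and 0 to 2 when 1 library was left out; of the 4 that fell, 2 to 4 did so. In the knockdown 3 to 4 rose and 1 to 3 fell when 1 library was left out. Between the perturbations the 1 lower member became 0 with library totals, and 0 to 2 when 1 library was left out. Over all genes in the knockout, 1817 rose and 2124 fell, against 736 to 2698 and 1172 to 2794 when 1 library was left out. With 3 counts over the group as the floor, the bounds for PKP3 became 57.7 and 23.9. Library totals moved the median of all genes by 0.12 in the knockdown against control, giving 4852 higher and 3669 lower, and by 0.11 against the knockout, giving 4409 and 2963. With 1 library left out, log2 changes that changed sign ranged from -0.0543 to 0.105 for KMT2B, from -0.0458 to 0.208 for OCLN and from -0.279 to 0.0692 for F11R in the knockout. They ranged from -0.130 to 0.166 for PKP2 and from -0.498 to 0.112 for KRT10 in the knockdown and, between the perturbations, from -0.134 to 0.0256 for DSG2 and from -0.0618 to 0.497 for CGNL1. The sign also changed for CTNNA1 in the knockout with exon length (0.00484), for KRT10 in the knockdown with exon length (0.131) and for DSG2 between the perturbations with library totals (0.0665); the cause was not tested. The neighbours were the 10 nearest tested genes of each member, with shared ones counted once. In the knockout 11 of them were called higher and 14 lower, against 4 to 15 and 9 to 17 over all alternatives. Of all genes 10.3% rose and 12.1% fell there. Higher calls fell to 6 and 4 without control replicates 1 and 2 and to 5 and 6 without knockout replicates 1 and 2, and lower calls to 9 without control replicate 1. In the knockdown 25 neighbours were lower, and 16 without control replicate 1, where 25.3% of all genes fell in the main fit. Same-numbered libraries deviated together by correlations of 0.07, 0.05 and 0.20 across genes over pairs of groups, so the replicate numbers were not taken as pairing, and under the replicate block DSP was higher in the knockout (adjusted p = 0.039) with no other member's call changed. In the 0-count libraries, depth limits PKP3 to a bound.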
